A study of Mus musculus with 6 samples.

Results

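The genes of calcineurin, of the NFAT transcription factors it acts on and of its regulators of the Rcan family were followed in mouse bone marrow-derived macrophages (BMDMs) with and without knockdown of Piezo1, a mechanically gated, calcium-permeable cation channel. The rows were taken by gene symbol: the catalytic subunits Ppp3ca, Ppp3cb and Ppp3cc, the regulatory subunit Ppp3r1, the factors Nfatc2, Nfatc3 and Nfatc4, and Rcan1 and Rcan2. All 9 symbols matched 1 row each of the 55401 genes of the table. BMDMs are primary macrophages grown from bone marrow, here of C57BL/6 mice. Negative-control siRNA (siNC) had been transfected in 3 libraries and Piezo1 siRNA (siPiezo1) in the other 3, and every library came from cells under mechanical stretch lasting 4 h. The study asks how Piezo1 promotes macrophage proliferation under mechanical load; unstretched cells were not analysed here.

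Calcineurin is a phosphatase switched on by calcium and calmodulin. It is a pair of a catalytic A subunit and a calcium-binding B subunit, and when cytosolic calcium rises it strips phosphates from NFAT proteins, which then enter the nucleus and switch on target genes, until kinases such as GSK3 and DYRK phosphorylate them again. Rcan proteins bind calcineurin and restrain it. A short form of Rcan1 starts at an internal promoter that NFAT itself drives, so the transcript is widely used as a readout of calcineurin activity. In the macrophage lineage, NFAT is best known for its part in osteoclast formation.

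For Rcan1, 2 RefSeq start regions are shown. The counts are summed over the gene and cannot separate transcripts that begin at one from those that begin at the other. GENCODE M21 lists 7 transcripts of Rcan1, and not all of them start within 50 bases of these 2 sites. The sequences are those of RefSeq on GRCm38.p6, minus strand of chromosome 16, from 250 bases before to 50 bases after each start. Capitals mark each GGAAA, the core of an NFAT site, or its reverse complement TTTCC. The upstream window lies at chr16:92466120-92466419 and the internal window at chr16:92400029-92400328, with 66091 bases between the 2 start sites.
Rcan1 upstream start: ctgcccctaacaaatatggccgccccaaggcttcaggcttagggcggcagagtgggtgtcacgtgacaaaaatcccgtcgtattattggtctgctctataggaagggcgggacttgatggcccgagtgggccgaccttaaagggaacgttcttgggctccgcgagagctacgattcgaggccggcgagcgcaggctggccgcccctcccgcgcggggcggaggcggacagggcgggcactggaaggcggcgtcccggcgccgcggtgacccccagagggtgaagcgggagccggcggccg
Rcan1 internal start: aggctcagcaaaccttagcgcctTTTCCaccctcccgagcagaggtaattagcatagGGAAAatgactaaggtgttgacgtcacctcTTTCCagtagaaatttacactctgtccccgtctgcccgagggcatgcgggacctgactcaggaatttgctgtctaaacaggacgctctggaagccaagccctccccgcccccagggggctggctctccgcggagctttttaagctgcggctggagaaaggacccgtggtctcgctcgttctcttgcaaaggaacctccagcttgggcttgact
The internal window held 3 matches, whose first bases lie 227, 193 and 163 bases before the start, and the upstream window held 0. Of all 32851 windows of 300 bases in the table, 61.3% held at least 1 match and 9.42% held at least 3. A match is a description of the letters and does not show that NFAT binds there.

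The libraries held 61086684 to 75052745 estimated counts, or about 16.2 to 19.9 M sequenced fragments. Piezo1 was checked first: siNC 1, 2 and 3 held 180, 285 and 189 CPM (a gene's count after putting all libraries on the same total) and siPiezo1 1, 2 and 3 held 111, 109 and 113 CPM, a mean of 51.0% of that in siNC. The groups did not overlap, but edgeR's test on all 6 libraries gave Piezo1 an adjusted p of 0.744. DESeq2 on all 6 libraries gave an adjusted p of 0.000982, and edgeR without siNC 2 gave 0.00245. Piezo1 passed under only these 2 of 14 alternatives. Exons of Ctu2 on the opposite strand cover 24.6% of the exon bases of Piezo1. The library siNC 2 differed most from the rest: across genes, Pearson's r of its log2 CPM with the other 5 libraries was 0.965 to 0.975, against 0.984 to 0.989 for pairs without it. Its 10 neutrophil markers summed to 3386 CPM, against 631 to 706 CPM in the other libraries, and its 7 macrophage markers to 26710 CPM, against 33550 to 36320 CPM. Itgam was not lowest in siNC 2, at 664 CPM against 261.5 to 1394 CPM in the other libraries. The neutrophil marker Retnlg had 0 CPM there, against 0.120 to 0.822 CPM. Every other marker of both lists went with its sum. Values without siNC 2 are therefore given where leaving it out moves a result. With all 6 libraries 0 of the 7 macrophage markers passed edgeR's test. Without siNC 2 edgeR called 2 lower in siPiezo1, where 74 of 16442 genes were called lower and 1.09% in either direction. The 2 markers were Adgre1 (-0.31 ± 0.05) and Fcgr1 (-0.46 ± 0.07, log2 fold change ± SE), at edgeR adjusted p = 0.0376 and 0.0283. In that comparison 5 of the 7 were below 0 and 2 above, Lyz2 (0.09 ± 0.04) and Itgam (0.47 ± 1.05). Lyz2, the largest part of the sum, stood at 20620 to 24960 CPM in siNC and 25600 to 26820 CPM in siPiezo1. The part of these markers in the results below was not tested. The 8 T cell markers summed to 32.1 to 44.2 CPM in siNC and 46.3 to 52.3 CPM in siPiezo1. Of these, Cd3e, Cd3d, Cd3g and Cd8a had 0 counts in all 6 libraries. Cd4 stood at 16.5, 1.83 and 13.25 CPM in siNC, against 4.70, 5.39 and 1.88 CPM in siPiezo1. Its log2 fold change was -1.40 ± 0.77 with all libraries and -1.90 ± 0.45 without siNC 2 (SE, edgeR adjusted p = 0.978 and 0.144). Most of the sum was Cd28, a costimulatory receptor best known from T cells. Cd28 stood at 25.5 to 29.4 CPM in siNC and 44.0 to 47.2 CPM in siPiezo1 without overlap (edgeR adjusted p = 0.296 with all libraries and 0.0126 without siNC 2, DESeq2 adjusted p = 1.09e-06). The 5 B cell markers summed to 1.82 to 3.54 CPM and the 6 neuronal markers to at most 0.732 CPM. The 7 fibroblast and endothelial markers summed to 9.87 to 29.4 CPM, highest in siNC 2. There Pecam1 alone was 18.7 CPM, against 1.24 to 3.69 CPM in the other libraries. Pdgfrb, at 3.32 against at most 3.27 CPM, was the only other gene of this list highest in siNC 2. Col1a1 and Col1a2 were not, at 4.63 and 1.615 CPM.

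Of the 9 genes, 7 were abundant enough to be tested. Per length, Ppp3r1 was the most abundant, at a mean of 48.5 CPM per kilobase of annotated exon over the 6 libraries. Next came Ppp3ca at 11.0, Nfatc3 at 7.43, Ppp3cb at 6.31, Rcan1 at 6.03, Ppp3cc at 3.09 and Nfatc2 at 2.55 CPM per kilobase. The levels of Ppp3r1, Ppp3ca and Nfatc3 did not overlap between neighbours of this order, nor did those of Rcan1 and Ppp3cc. Nfatc3, Ppp3cb and Rcan1 overlapped their neighbours in that run, as did Ppp3cc and Nfatc2. The exon lengths count every annotated transcript, so a gene with long unused exons reads low on this scale.

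The remaining genes were at or near the limit of detection. Rcan2, a relative of Rcan1 best known from brain and muscle, had 0 counts in all 6 libraries. Nfatc4, an NFAT gene expressed mainly outside the immune system, had 0 counts in 5 libraries and 7 estimated counts, about 2 fragments, in siPiezo1 1. A level of 3 fragments, the limit that a count of 0 allows, corresponds to 0.151 to 0.186 CPM in these libraries, counting error only.

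**Figure D1:**
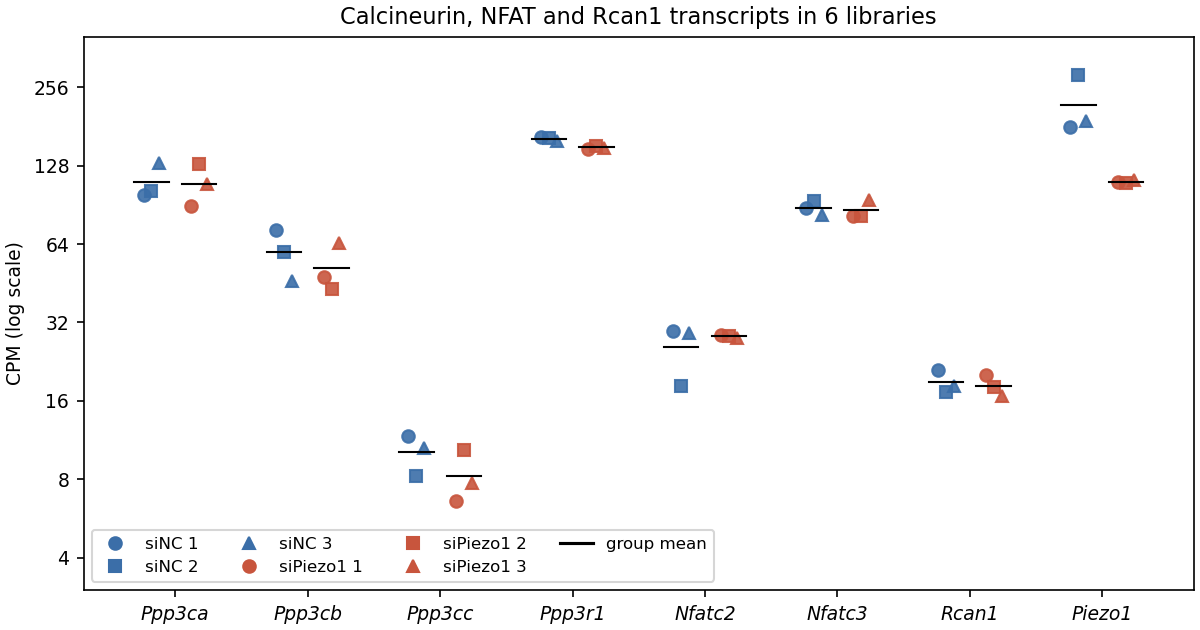
Levels of the 7 tested genes and of Piezo1 in each library, in CPM on a log axis. Points are libraries, with circle, square and triangle for replicates 1, 2 and 3, and bars are group means. Only Ppp3r1 and Piezo1 have siPiezo1 libraries that all lie below all siNC libraries, and siNC 2 is the lowest Nfatc2 value at 18.3 CPM.

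Rcan1, the transcript readout of calcineurin activity, was at nearly the same level in both groups. Its levels were 21.1, 17.4 and 18.2 CPM in siNC 1, 2 and 3, against 20.1, 18.1 and 16.7 CPM in siPiezo1 1, 2 and 3. The groups overlapped throughout, with the highest value in siNC 1 and the lowest in siPiezo1 3. The means were 18.9 ± 1.95 CPM in siNC, beside 18.3 ± 1.71 CPM in siPiezo1 (SD, n = 3), a siPiezo1 level of 96.9% of siNC. The log2 fold change, siPiezo1 against siNC, was -0.05 ± 0.13 (SE; edgeR adjusted p = 0.995, by Benjamini-Hochberg over all tested genes). Its 95% interval ran from -0.36 to 0.27, or from 78.1% to 120.3% of the siNC level. An exact two-sided permutation test of the CPM values gave p = 0.6, where 3 against 3 libraries cannot go below 0.1. The sign was not stable: it was above 0 without siNC 1 (0.04) or siPiezo1 3 (0.02) and was -0.11 ± 0.13 (SE) without siNC 2. Each library held 296 to 381 fragments of Rcan1. In a bulk sample, fewer cells that express a gene and less RNA per cell cannot be told apart, and a count per gene cannot show a switch between the start sites printed above.

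The catalytic subunits of calcineurin varied more between replicates of a group than between the groups. Ppp3ca, which encodes the alpha isoform, stood at 98.3, 102.5 and 130.5 CPM in siNC, against 89.5, 129 and 108.5 CPM in siPiezo1. The groups overlapped, and the log2 fold change was -0.02 ± 0.17 (SE). It was -0.07 ± 0.21 (SE) without siNC 2 and turned positive without siNC 3 (0.12) or siPiezo1 1 (0.10). Ppp3cb, the beta isoform, stood at 72.8, 59.5 and 46.2 CPM in siNC, against 47.6, 42.8 and 64.5 CPM in siPiezo1. Its groups overlapped too, with siNC 1 and siPiezo1 3 the highest of their groups, and the log2 fold change was -0.20 ± 0.21 (SE). It ran from -0.40 to -0.03 with 1 library left out. Ppp3cc, the gamma isoform and the lowest of the catalytic genes, stood at 11.8, 8.23 and 10.5 CPM in siNC, against 6.63, 10.4 and 7.76 CPM in siPiezo1. Its log2 fold change was -0.30 ± 0.23 (SE) with all libraries and -0.43 ± 0.21 (SE) without siNC 2, where the siPiezo1 values all lie below the remaining siNC values, the nearest at 10.4 against 10.5 CPM. Gm49417 on the opposite strand covers 3.05% of the exon bases of Ppp3cc.

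Summed per length, the catalytic transcripts were 21.2 ± 1.25 CPM per kilobase in siNC and 19.6 ± 2.59 in siPiezo1 (SD, n = 3). Ppp3ca made up 44.7%, 51.9% and 59.9% of this sum in siNC 1, 2 and 3 and 54.0%, 60.8% and 52.3% in siPiezo1 1, 2 and 3. Ppp3cb made up 37.4%, 34.2% and 24.0% in siNC and 32.6%, 22.8% and 35.2% in siPiezo1. The 2 libraries with the highest Ppp3ca share, siNC 3 and siPiezo1 2, had the lowest Ppp3cb share, and they belong to different groups; shares of 1 sum must move against each other, but the CPM of Ppp3ca was also highest and that of Ppp3cb lowest in these 2. Ppp3cc took 12.5% to 17.9% across the 6 libraries.

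**Figure D2:**
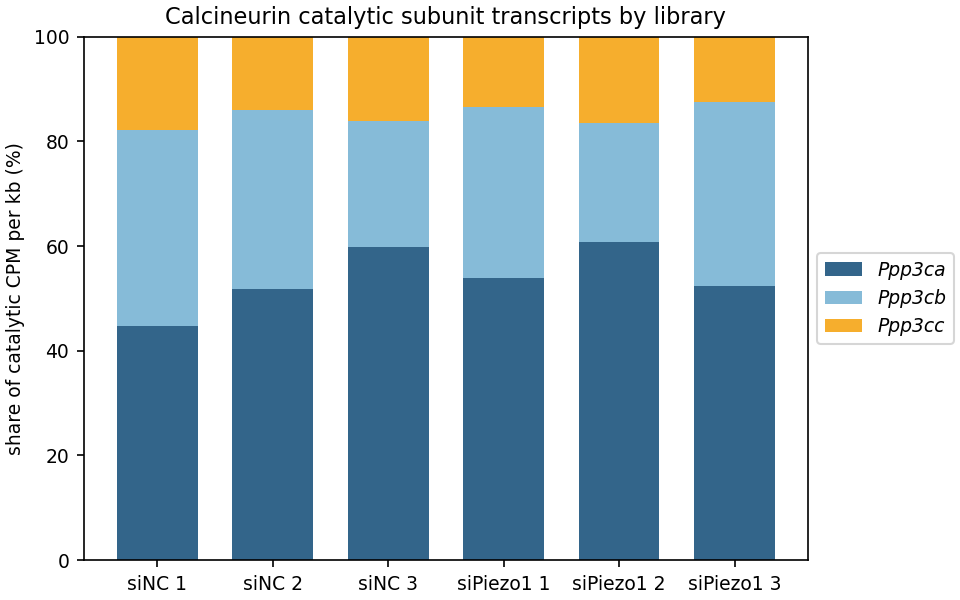
Share of each catalytic subunit gene in the summed catalytic CPM per kilobase, 1 bar per library. The order Ppp3ca, Ppp3cb, Ppp3cc holds in every library, while the Ppp3ca share runs from 44.7% in siNC 1 to 60.8% in siPiezo1 2.

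Ppp3r1, the gene of the B subunit, was the only member whose groups did not overlap with all 6 libraries. It stood at 164.6, 164.0 and 158.8 CPM in siNC, against 148.6, 152.6 and 149.7 CPM in siPiezo1, so each siPiezo1 library lay below each siNC library. On average the siPiezo1 level was 92.5% of that in siNC. The SD was 1.96% of the mean in siNC and 1.36% in siPiezo1. The log2 fold change was -0.11 ± 0.07 (SE; edgeR adjusted p = 0.978), with a 95% interval of -0.27 to 0.05, and it did not pass the threshold. Without siNC 2 it was -0.11 ± 0.06 (SE), and over all alternatives it stayed between -0.13 and -0.10. Groups that do not overlap were common in these data: 1898 of 15959 tested genes, or 11.9%, and for genes lower in siPiezo1 5.65%, so 1 of 7 members is near the background.

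The value of Ppp3r1 is uncertain in 1 respect. Its row shares 462 exon bases, 14.3% of its own, with Wdr92, a gene on the same strand, and how fragments of such bases were assigned was not given in the sources used here. Wdr92 stood at 11.1, 12.8 and 11.6 CPM in siNC, against 16.7, 14.5 and 18.6 CPM in siPiezo1. It thus lay higher in each siPiezo1 library, opposite to Ppp3r1, at a log2 difference of 0.48 ± 0.14 (SE; edgeR adjusted p = 0.941). The sum of both genes was 175.7, 176.8 and 170.4 CPM in siNC and 165.3, 167.1 and 168.3 CPM in siPiezo1, still without overlap but with 170.4 and 168.3 CPM as the nearest values. Wdr92 was looked at because of this overlap, after the values were seen.

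Of the NFAT factors, Nfatc3 was the more abundant and Nfatc2 the one that set siNC 2 apart. Nfatc2 stood at 29.6, 18.3 and 29.2 CPM in siNC, against 28.6, 28.4 and 28.0 CPM in siPiezo1. All libraries but siNC 2 thus lay within 28.0 to 29.6 CPM. With all 6 libraries the log2 fold change was 0.14 ± 0.19 (SE), and without siNC 2 it was -0.06 ± 0.09 (SE), with a 95% interval of -0.26 to 0.15. Nfatc3 stood at 87.8, 93.3 and 82.8 CPM in siNC, against 82.1, 82.3 and 94.6 CPM in siPiezo1. Its groups overlapped, and its log2 fold change was -0.03 ± 0.09 (SE) with all libraries and 0.01 ± 0.08 (SE) without siNC 2; it was also above 0 without siPiezo1 1 or siPiezo1 2. Per length, Nfatc3 was 2.56 to 3.05 times as abundant as Nfatc2 in 5 libraries and 4.60 times in siNC 2, the library with the high neutrophil markers; their part in this was not tested. Exons of Esrp2 on the opposite strand cover 1.87% of Nfatc3.

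In all, 0 of the 7 tested members passed edgeR's test on all 6 libraries at an adjusted p of 0.05, where 1 of 15959 genes, or 0.00627%, did. At an unadjusted p under 0.05 there were 0 members, against 786 genes, or 4.93%. DESeq2 called 0 members and 88 genes, or 0.555% of those it gave an adjusted p, and limma-voom also called 0 members. Without siNC 2 edgeR called 180 of 16442 genes, or 1.09%, and again 0 members, with edgeR adjusted p from 0.407 for Ppp3cc to 0.976 for Nfatc3. In that comparison the groups of 3 members, Ppp3cc, Ppp3r1 and Nfatc2, did not overlap, where 32.8% of all genes did not. The median log2 fold change of the 7 members was -0.045, beside -0.01 for all tested genes, and 6 of the 7 were below 0, as were 8299 of all 15959 tested genes. Without siNC 2 the median of the members was -0.106, beside 0.0038 for all tested genes. There too 6 of the 7 were below 0, as were 8141 of 16442 tested genes. The 6 were not the same genes, as Nfatc2 was now below 0 (-0.06) and Nfatc3 above 0 (0.01). Across the members the 95% intervals with all libraries reached from 55.6% of the siNC level for Ppp3cc to 151.0% for Nfatc2. Changes within those limits were not resolved.

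**Figure D3:**
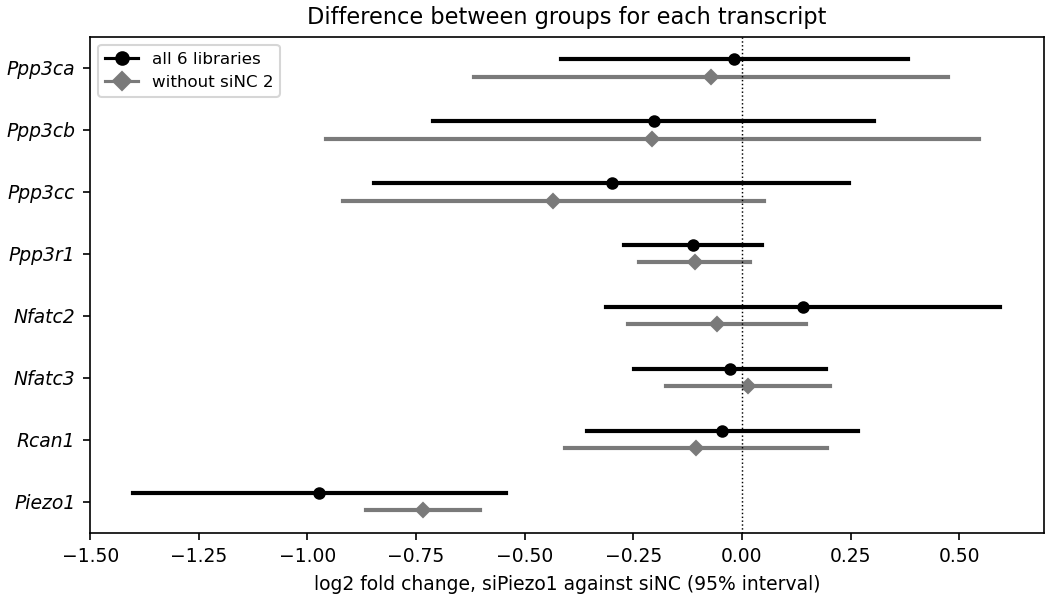
Log2 fold change of each tested gene, siPiezo1 against siNC, with its 95% interval from edgeR, for all 6 libraries (black circles) and without siNC 2 (grey diamonds). Every interval of the 7 members includes 0, while that of Piezo1 lies below 0 in both. The interval of Nfatc2 narrows and its centre moves from 0.14 to -0.06 when siNC 2 is left out.

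Of 11 other partners and inhibitors of calcineurin, 7 were tested and 0 passed, with a median log2 fold change of 0.04 with all libraries and -0.03 without siNC 2; Ppp3r2, the B subunit of testis, had 0 counts throughout. Those with the smallest p were Ppia, the cyclophilin through which cyclosporin inhibits calcineurin (0.26 ± 0.17), Chp1, a calcineurin B homologue (-0.29 ± 0.26), Akap1, a kinase anchor of mitochondria (0.13 ± 0.12), and the scaffold gene Homer3 (-0.14 ± 0.13; log2 fold change ± SE for each). Without siNC 2 these were 0.13 for Ppia, -0.45 for Chp1, 0.05 for Akap1 and -0.09 for Homer3. Near-identical copies of Ppia were not checked. Rcan3, the other Rcan gene expressed here, stood at 39.5 ± 3.19 CPM in siNC, beside 40.6 ± 1.86 CPM in siPiezo1 (SD, n = 3). Cabin1, a calcineurin inhibitor, stood at 75.7 ± 9.55 and 79.0 ± 5.68 CPM (SD, n = 3). Thus neither of these restraints on calcineurin differed by more than the spread between replicates; without siNC 2 the log2 fold change was -0.03 for both.

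All 11 genes listed under NFAT kinases were tested, and 0 passed with all 6 libraries, with a median of 0.04, and -0.03 without siNC 2. Gsk3b stood at 117 ± 3.80 CPM in siNC, beside 109 ± 7.59 CPM in siPiezo1 (SD, n = 3). The log2 fold change was -0.11 ± 0.08 (SE). Its groups did not overlap, by 113.7 against 113.5 CPM at the nearest. Mapk8, which encodes the kinase JNK1, had a log2 fold change of -0.14 ± 0.15 (SE) with all libraries and -0.03 ± 0.14 (SE) without siNC 2. Mapk14, the gene of the p38 alpha kinase, had 0.66 ± 0.39 (SE), which rests on siPiezo1 2 at 258 CPM against 112 and 89.9 CPM in the other siPiezo1 libraries and 77.2 to 109.6 CPM in siNC. Lrrk2, listed with them only as a kinase reported to hold NFAT in the cytosol, stood at 47.7, 124 and 45.2 CPM in siNC. In siPiezo1 it stood at 85.9, 78.7 and 109.4 CPM. Without siNC 2 Lrrk2 was the only gene of these lists to pass, 0.97 ± 0.14 higher (SE; edgeR adjusted p = 0.0334), where 0.645% of all genes were called higher. With all libraries its log2 fold change was 0.34 ± 0.40 (SE), and siNC 2 was the highest of all 6.

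A further list of 10 genes held Nfat5, the NFAT relative that responds to tonicity and not to calcineurin, together with genes of calcineurin substrates. All were tested and 0 passed. The median was 0.02 with all libraries and -0.12 without siNC 2. Tfe3, a lysosomal gene regulator, had -0.15 ± 0.12, and Dnm1l, the mitochondrial fission enzyme DRP1, -0.16 ± 0.12. The transcription factor gene Mef2c had -0.26 ± 0.26 and Crtc2, a coactivator of CREB, 0.07 ± 0.09 (log2 fold change ± SE). Without siNC 2 Tfe3 was at -0.27 ± 0.06 (SE; edgeR adjusted p = 0.0853), Mef2c at -0.47 ± 0.20, Dnm1l at -0.19 ± 0.12 and Crtc2 at 0.04 ± 0.09 (SE). Nfat5 itself ranged from 61.0 to 156.5 CPM among the siNC libraries and from 94.4 to 135.4 CPM among the siPiezo1 libraries, and its log2 fold change was 0.04 ± 0.33 (SE) with all libraries and 0.32 ± 0.42 (SE) without siNC 2.

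Transcripts reported as NFAT targets in lymphoid, myeloid or osteoclast cells did not differ as a group in a way that held without siNC 2. Of 23 listed, 15 were tested and 0 passed, while Il2, Fasl and Cd40lg, which are T cell genes, had 0 counts in every library. With all libraries 13 of 15 were below 0, with a median of -0.75, and without siNC 2 only 6 of 15 were below 0, with a median of 0.11. Of all tested genes, 8299 of 15959 were below 0 with all libraries, with a median of -0.01. Without siNC 2 it was 8141 of 16442, with a median of 0.0038. Beside this, the neutrophil markers had medians of -1.38 and -0.05 in the same comparisons; their part in the result was not tested.

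Ptgs2, which encodes cyclooxygenase-2, shows the pattern: it stood at 19.5, 335 and 20.0 CPM in siNC, against 59.2, 30.4 and 32.7 CPM in siPiezo1. Its log2 fold change was -1.62 ± 1.12 (SE) with siNC 2 and 1.04 ± 0.35 (SE) without it. Tnf, the gene of the inflammatory cytokine TNF, stood at 83.5, 262 and 91.6 CPM in siNC, against 102.4, 85.4 and 95.8 CPM in siPiezo1. Without siNC 2 its log2 fold change was 0.11 ± 0.09 (SE). Il10, an anti-inflammatory cytokine gene, stood at 1.81, 4.50 and 1.35 CPM in siNC, against 1.13, 1.50 and 1.69 CPM in siPiezo1, again highest in siNC 2. Its log2 fold change was -0.83 ± 0.50 (SE) with all libraries and -0.14 ± 0.38 (SE) without siNC 2.

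Atp6v0d2, a proton pump subunit needed for osteoclast fusion, had the smallest p of the target list. It stood at 24.1, 37.4 and 23.8 CPM in siNC, against 19.5, 13.3 and 12.8 CPM in siPiezo1, with no overlap between the groups. The log2 fold change was -0.90 ± 0.25 (SE) with all libraries and -0.66 ± 0.19 (SE) without siNC 2. It did not pass in either case (edgeR adjusted p = 0.904 and 0.152). DESeq2 gave an adjusted p of 0.102 (Benjamini-Hochberg). The other osteoclast genes tested differed in direction, and none passed. Acp5, tartrate-resistant acid phosphatase, had a log2 fold change of 0.05 ± 0.46 (SE) with all libraries and 0.80 ± 0.18 (SE) without siNC 2. Ctsk, the collagen-degrading cathepsin K, had -0.02 ± 0.27 and 0.34 ± 0.14 (SE) in the same comparisons, and the integrin gene Itgb3 -0.75 ± 0.58 and 0.31 ± 0.15 (SE). Dcstamp, needed for osteoclast fusion, was below 0 in both, at -1.26 and -0.56, each with an SE larger than the value and with at most 1.55 CPM in any library.

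**Figure D4:**
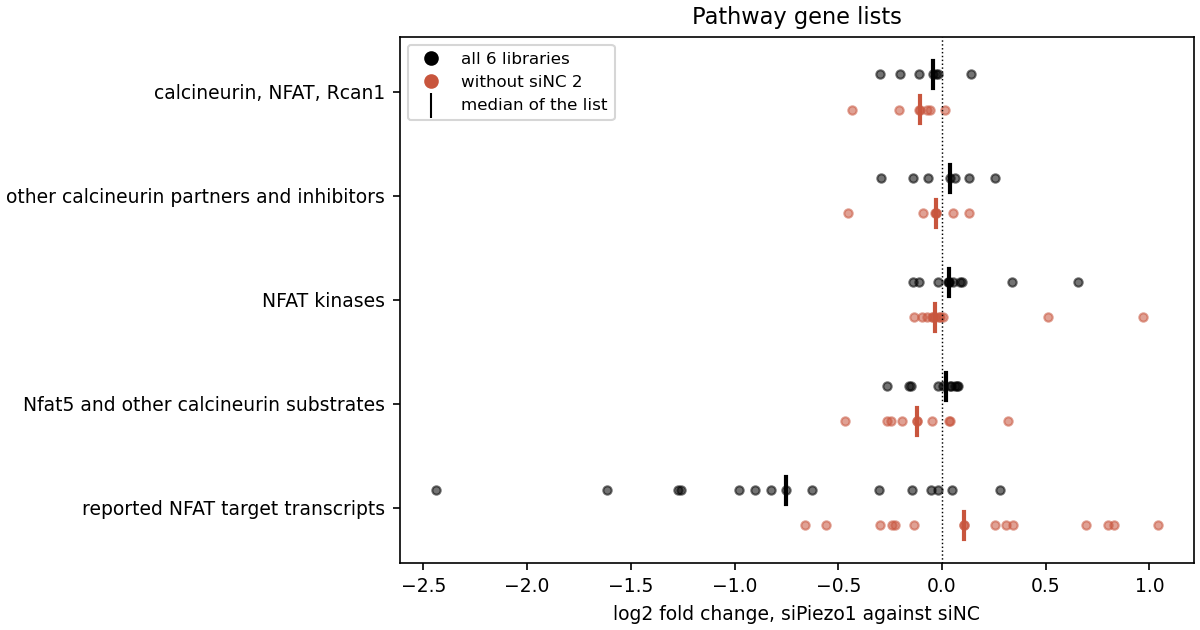
Log2 fold change, siPiezo1 against siNC, of every tested gene of the calcineurin, NFAT and Rcan1 set and of the 4 other pathway lists, with all 6 libraries (black) and without siNC 2 (red). Vertical bars are the medians of each list. The median of the reported NFAT targets moves from -0.75 to 0.11 when siNC 2 is left out, while those of the other lists stay between -0.12 and 0.04.

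Among 8711 tested genes with a mean of at least 10 CPM, the pattern of Rcan1 over the 6 libraries was most like that of a set of 5 that included Rnf217, Tmem101, Dnmbp and Rmnd5b. Their log2 CPM correlated with that of Rcan1 at Pearson's r of 0.975, 0.970, 0.967 and 0.960. Tmem101, for example, stood at 13.2, 10.8 and 11.6 CPM in siNC, against 12.6, 11.2 and 9.64 CPM in siPiezo1. With 6 points that share their libraries this is a description only; 37 genes, or 0.425%, reached at least 0.9.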

How the data were processed

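Poly(A) RNA was sequenced from 6 BMDM libraries, grouped by their titles. Per the submitters' processing notes, cutadapt 1.9, HISAT2 2.0.4, StringTie 1.3.4d, DESeq2 and edgeR were used with build GRCm39; what each did, the annotation and the strand setting were not given in the sources used here. Values deposited by the authors are estimated counts by Ensembl gene, written as whole numbers and unscaled; low values pile up at multiples of 3.78, taken as 1 fragment. The design assumed counts, and the same test was kept. Symbols came from GENCODE M21 (GRCm38; 55141 of 55401 identifiers), which also gave exon lengths, so no gene coordinates of the counts are printed. Not every NFAT family gene was analysed here, and 1 pathway gene list is not reported here.

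In R 4.3.3, edgeR 4.0.16 was run with filterByExpr (15959 genes), TMM factors and a robust quasi-likelihood fit with the group alone, with Benjamini-Hochberg adjustment across the tested genes and a threshold of 0.05. SE is the size of the log2 fold change over the root of F. CPM used the TMM factors; log2 CPM used a pseudocount of 0.5. The test was also run on simulated data, but the outcome is not reported here. That run therefore does not show how well the test performs on these libraries. Alternatives were scaling by DESeq2's size factors or by library totals, no filter, a minimum of 50 counts in 3 libraries, limma-voom (limma 3.58.1), DESeq2 1.42.0, a replicate block, counts divided by 4 and each library left out. Those for the pathway lists and Piezo1 were added after seeing the data. Members and lists were chosen with earlier results of these data known. Named genes are the members, Piezo1, the up to 4 genes of each list with the smallest p, any pathway list gene past the threshold with all libraries or without siNC 2, and the 5 genes most like Rcan1, of which 4 are named; Rcan3, Cabin1, Nfat5, Acp5, Ctsk, Itgb3, Dcstamp, Wdr92 and the single marker genes were added after their values were seen. Whether replicates came from separate cultures or mice is not said in the labels; the p-values reflect the spread of these samples alone, possibly a technical one.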

Additional observations from a re-analysis of the deposited data

How the results depend on the processing

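The count of called members was 0 under all 14 alternatives. Genes called over the whole table were 1 in the main test, 0 with library totals alone, 0 with the replicate block, 88 with DESeq2 and 0 to 180 with 1 library left out; the highest was without siNC 2. Calls among the 4 pathway lists were 0 to 1 with a library left out, the 1 being Lrrk2 without siNC 2. With 1 library left out, the log2 fold change of Rcan1 ran from -0.12 to 0.04, that of Ppp3ca from -0.16 to 0.12, that of Nfatc2 from -0.06 to 0.25 and that of Nfatc3 from -0.10 to 0.01, each crossing 0 (without siNC 2, Nfatc2 was at -0.0571 and Nfatc3 at 0.0134); the cause was not tested. Ppp3cb, Ppp3cc and Ppp3r1 were below 0 under all 14 alternatives, but with 1 library left out Ppp3cb ran from -0.395 to -0.0344 and Ppp3cc from -0.50 to -0.166. The median of the reported NFAT targets ran from -1.02 to 0.11. Piezo1 did not pass in the main test (-0.97, edgeR adjusted p = 0.744) or under 12 of the 14 alternatives; it passed with DESeq2 (-0.97, adjusted p = 0.000982, Benjamini-Hochberg) and without siNC 2 (-0.73, adjusted p = 0.00245 in edgeR), and its adjusted p ran up to 1.0 over the alternatives. The replicate numbers gave no sign of pairing: deviations of same-numbered libraries from their group means correlated at 0.04, -0.08 and -0.16. By these deviations, no library correlated best with the library of its own number in the other group. Deviations within a group of 3 sum to 0, so these values cannot settle whether same-numbered libraries share a culture or mouse. No member was called with the replicate block. Depth limits Rcan2 and Nfatc4, for which no fold change can be given.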
